A study of Mus musculus with 2 samples.

Results

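Mouse liver holds, besides its well-known microRNAs, a long tail of microRNAs that were entered late in the public register, miRBase, which gives numbers in order of discovery. Those numbered 1900 or higher were examined here in livers of ethanol-fed and pair-fed mice. Members were chosen by their number and selected on their level: a microRNA was kept with at least 10 reads in both libraries of experiment 1 together, or with a listed value above 0 in either library of experiment 2. Of 1012 names numbered 1900 or higher, 67 met this rule, among 488 microRNAs of any number that met it and 1915 names in all. miR-3107, a name for miR-486b, was left out of the 1012 names and the 67 members by rule. Totals over microRNAs of any number were taken without that exclusion. Whether the 67 occur in rodents alone was not examined, and they are called here by their number. At the edge of the rule, 2 members had 10 reads in experiment 1 and 3 names had 9 reads, of which miR-1933-3p was a member through experiment 2, and the lowest listed value of experiment 2 was 0.92 RPM (reads per 1000000 reads on microRNAs), the highest value of 4 members.

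All libraries came from total RNA of livers of female wild-type C57BL/6 mice aged 8 to 10 weeks. After 5 days on the control Lieber-DeCarli liquid diet, the ethanol-fed mice had that diet with 5% (v/v) ethanol for 10 days and the pair-fed mice an isocaloric diet without it. On day 16 the former were gavaged with 6 g/kg ethanol and the latter with isocaloric dextrin-maltose, and both were killed 9 h later. The labels hold 1 sample per group, whereas 2 tables were deposited, each with 1 pair-fed and 1 ethanol-fed library, so neither table has a replicate. One table holds raw reads and the other RPM, and they were not fitted together, so no test between the groups was made, and each ratio below compares 2 libraries and not 2 diets.

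MicroRNAs are short RNAs that guide Argonaute proteins to messenger RNAs, which they recognize mainly through the seed, bases 2 to 8. Most are cut by Drosha and Dicer from a hairpin, whose 5p and 3p arms can each give a mature microRNA. Others arise by other routes, such as mirtrons, which are spliced introns that fold into the hairpin, and hairpins cut from small nucleolar RNAs (snoRNAs). Many microRNAs with late numbers are rare, and sequences that match repeats or fragments of other RNAs are known among them.

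Of the 67 members, 57 had a mature sequence in the RefSeq tables (GRCm38.p6). The sequences shown first belong to members named by level or by their change among members with at least 100 reads in a library, and to the second arm of miR-3068 and to miR-6240, which are described further on. The seed is in capitals:
miR-3535: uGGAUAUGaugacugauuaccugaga
miR-3057-5p: aUUGGAGCugagauucugcgggau
miR-1943-5p: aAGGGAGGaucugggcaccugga
miR-3470b: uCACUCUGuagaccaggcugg
miR-3068-5p: uUGGAGUUcaugcaaguucuaacc
miR-3068-3p: gGUGAAUUgcaguacuccaaca
miR-3105-3p: aCUGCUUAugagcuugcacucc
miR-1981-5p: gUAAAGGCugggcuuagacguggc
miR-6240: cCAAAGCAucgcgaaggcccacggcg

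The second set shares a run of 9 bases, GAGAUGGCU, in capitals. This run was found in 4 of the 57 members and in 0 of the 355 lower-numbered microRNAs that met the detection rule and had a sequence.
miR-3473a: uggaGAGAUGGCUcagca
miR-3473b: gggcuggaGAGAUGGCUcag
miR-3473e: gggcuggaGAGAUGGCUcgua
miR-5128: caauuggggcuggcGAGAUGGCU

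The third set shares the run AUCCCA, in capitals, which was found in 3 of 57 members (5.26%) and in 1 of 355 lower-numbered microRNAs (0.282%), miR-191-5p. Both runs were picked from the members' own sequences, so a larger share among the members follows in part from that choice. They were searched on the strand of the mature microRNA only.
miR-3963: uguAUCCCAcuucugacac
miR-3968: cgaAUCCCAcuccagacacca
miR-5100: ucgaAUCCCAgcggugccucu

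The fourth set shares longer stretches with abundant older microRNAs, and each member is followed by its relative, with the shared stretch in capitals. let-7 microRNAs are abundant in differentiated tissue, and miR-142a is made in blood cells.
miR-1961: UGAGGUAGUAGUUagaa
let-7i-5p: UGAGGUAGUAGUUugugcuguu
miR-3962: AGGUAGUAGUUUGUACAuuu
let-7g-5p: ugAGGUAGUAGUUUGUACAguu
miR-3964: auaagGUAGAAAGCACUAaa
miR-142a-5p: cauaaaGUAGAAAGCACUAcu
miR-3969: cccUAAAGUAGAAAucacua
miR-142a-5p: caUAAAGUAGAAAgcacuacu

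A further member, miR-3074-5p, was the reverse complement of miR-24-3p over 20 bases, in capitals. Its second locus at chr8:84208873-84208894 on the minus strand lies opposite miR-24-3p at chr8:84208875-84208896 on the plus strand (GRCm38.p6).
miR-3074-5p: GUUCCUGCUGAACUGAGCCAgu
miR-24-3p: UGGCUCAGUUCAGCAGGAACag

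In length the members spread more widely than older microRNAs. Their mature sequences were 21.7 ± 1.66 nt long (SD over 57 sequences, range 17 to 26 nt), against 22.0 ± 0.937 nt for the 355 lower-numbered ones. A length of 21 to 23 nt was found in 68.4% of the former and 92.1% of the latter, 20 nt or less in 19.3% and 3.94%, and 24 nt or more in 12.3% and 3.94%. The median G and C share was 52.4% against 47.6%, and the highest was 100% in miR-5126. These are descriptions of the register's sequences, with no test.

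**Figure D1:**
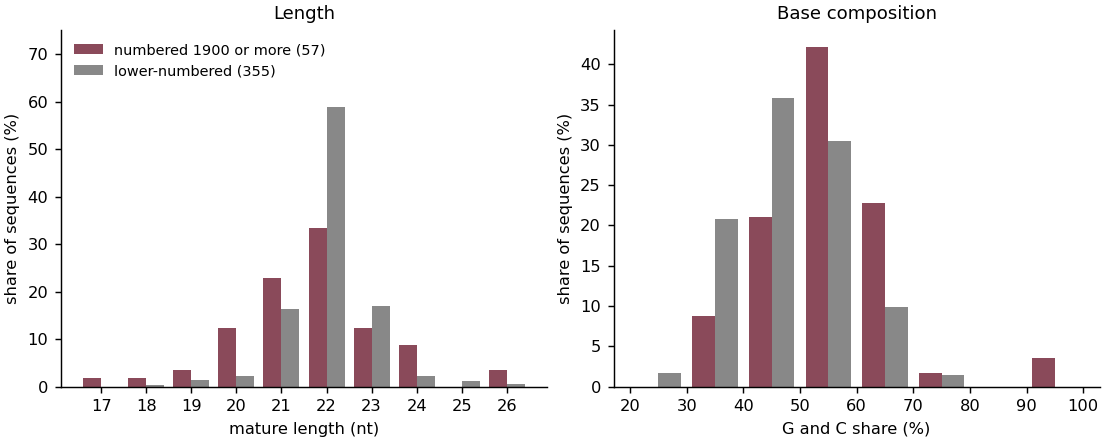
Mature length in nt and G and C share in percent of the members (57 sequences, red) and of lower-numbered detected microRNAs (355, grey), each as the share of its set in percent. The members hold more sequences of 20 nt or less (19.3% against 3.94%) and a higher median G and C share (52.4% against 47.6%).

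The members made up a small part of the microRNA reads. The pair-fed library of experiment 1 had 4170601 reads on microRNAs and its ethanol-fed counterpart 4311802, of which 1075 and 982 came from the 67 members. These are 0.0258% (95% Wilson interval 0.0243% to 0.0274%) and 0.0228% (0.0214% to 0.0242%). In experiment 2, the members summed to 404.84 RPM (0.0405%) after pair-feeding and 619.43 RPM (0.0619%) after ethanol. The low values of that table rise in steps of 0.0925 and 0.0924 RPM. Taking a step as 1 read gives totals of about 10812946 and 10820862 reads. A listed 0 then stands for fewer than 10 reads, since the lowest listed value is 10 steps. Intervals cover counting error only, because copies made by PCR were not told apart, and those of experiment 2 also assume that a step is 1 read. The median member had 5.04 RPM in the pair-fed library of experiment 1 and 1.53 RPM in that of experiment 2, whereas lower-numbered microRNAs had medians of 17.0 and 16.6 RPM. The 2 tables were made separately, so levels are compared within a table.

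Which members were detected differed between the experiments. Experiment 1 had 27 members and experiment 2 had 60, with 20 in both, so that 74.1% of the former and 33.3% of the latter were shared. For lower-numbered microRNAs, 263 were detected in both, which are 95.6% of the 275 of experiment 1 and 64.3% of the 409 of experiment 2. Of the 40 members found in experiment 2 alone, 27 had no row in experiment 1, which lists 484 microRNAs, and 13 had under 10 reads there. The 7 members of experiment 1 alone, all listed at 0 in both libraries of experiment 2, were miR-1943-5p, miR-3103-5p, miR-5107-5p, miR-6539, miR-7236-3p, miR-7688-5p and miR-8111. Those among them that no naming rule covers were picked with their values in view.

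In experiment 1 the highest members of the pair-fed library were miR-3535, miR-1948-3p, miR-3057-5p, miR-1943-5p and miR-3470b. Here and below, the pair-fed value comes first. miR-3535 had 226 and 246 reads, and it ranked 101 among the 302 microRNAs detected there. miR-1948-3p had 200 and 116 reads, and miR-3057-5p had 103 and 86 reads. miR-1943-5p had 75 and 33 reads. miR-3470b had 57 and 107 reads. Thus miR-3470b alone among these 5 had a ratio whose interval lay above 1, and miR-1943-5p and miR-1948-3p had intervals below 1.

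In experiment 2 the highest members were miR-5099, miR-3068-5p, miR-1981-5p, miR-3968 and miR-3963. miR-5099 had 64.92 and 123.37 RPM, and it ranked 141 among 469 microRNAs. miR-3068-5p had 39.12 and 35.58 RPM, and miR-1981-5p had 38.38 and 83.91 RPM. miR-3968 had 35.70 and 69.50 RPM, and miR-3963 had 35.61 and 92.69 RPM. With the exception of miR-3068-5p, each of these 5 was higher in the ethanol-fed library, by 1.90 to 2.60 times. None of the 5 highest members of one table was among the 5 highest of the other.

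**Figure D2:**
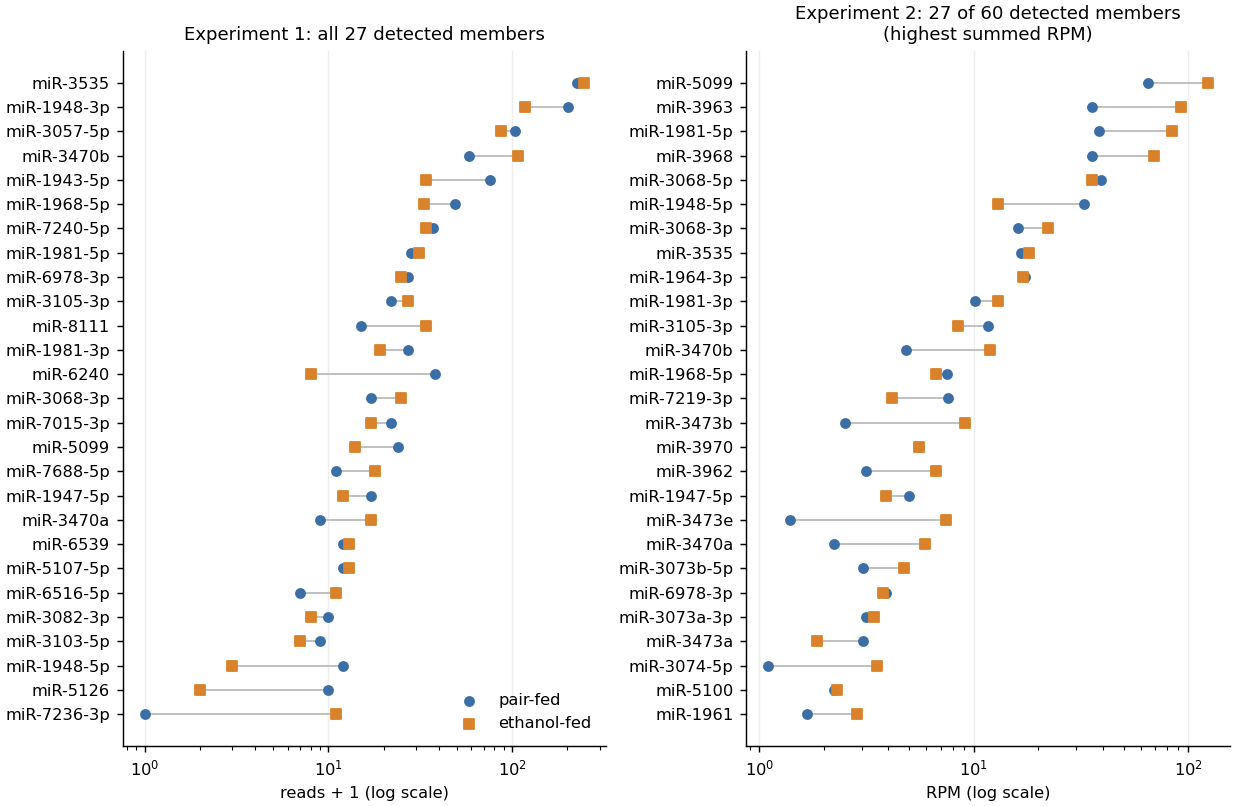
Levels of the members in the pair-fed (blue circles) and ethanol-fed library (orange squares), joined by a line, as reads plus 1 in experiment 1 (all 27 detected members, left) and as RPM in experiment 2 (the 27 highest of 60, right), both on log axes. In experiment 2, miR-5099, miR-3963, miR-1981-5p and miR-3968 lie farthest right and are higher in the ethanol-fed library. In experiment 1, miR-3535 leads with 226 and 246 reads.

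The ratio of the ethanol-fed to the pair-fed library was taken as a log2 ratio, after scaling to the reads on microRNAs and with 1 read added in experiment 1, and a value was counted as higher or lower from 2-fold on. In experiment 2 a listed 0 was set to 0.92 RPM, so that the ratio is then a bound. These ratios use the same libraries as the detection rule, so the counts are a description. In experiment 1, 2 of 27 members were at least 2-fold higher and 4 were at least 2-fold lower, whereas over all 302 microRNAs 12.6% were higher and 12.9% lower. The members' median log2 ratio was −0.17, and that of all microRNAs was −0.01. In experiment 2, 12 of 60 members were at least 2-fold higher and 3 were at least 2-fold lower, whereas over all 469 microRNAs 5.76% were higher and 10.4% lower. The medians were 0.16 and 0.00. Among the 42 members listed above 0 in both libraries of experiment 2, which needs no bound, 10 were higher and 1 was lower (miR-1948-5p), and among the 360 such lower-numbered microRNAs 12 were higher and 34 lower. In experiment 1 the members' counts were thus near the background, and in experiment 2 they lay above it for higher and below it for lower values. Counting intervals left out 1 for 57.6% of all 302 microRNAs in experiment 1 and for 59.5% of 402 in experiment 2. Among the members, 3 of 27 intervals lay above 1 and 5 below it in experiment 1, and 14 and 3 of 42 in experiment 2. An interval without 1 was thus common between these libraries and does not by itself set a member apart.

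The summed level of the members moved in opposite directions in the 2 experiments. In experiment 1 it was 0.884 times as high in the ethanol-fed library (counting interval 0.81 to 0.963), and in experiment 2 it was 1.53 times as high (1.47 to 1.59). miR-5099, miR-3963, miR-3968 and miR-1981-5p together held 174.61 and 369.47 RPM in experiment 2, which is 90.8% of the difference in the members' sum. The other 63 members summed to 230.23 and 249.96 RPM, a ratio of 1.09. This set of 4 was picked with the values in view.

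Of the 20 members detected in both experiments, 6 were higher in both, 5 were lower in both and 9 had opposite signs. 1 member, miR-1948-5p, passed 2-fold in the same direction in both, and 0 passed it in opposite directions. No member had counting intervals on opposite sides of 1. The sign therefore differed for nearly as many members as it was shared. Signs were not counted over all 283 microRNAs detected in both experiments, so this cannot be read as particular to the members. In experiment 2, miR-5126 and miR-6240 were detected through the ethanol-fed library alone, and miR-1948-3p through the pair-fed library alone. The detection rule thus set their sign there. The first 2 are among the opposite signs and miR-1948-3p among those lower in both.

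**Figure D3:**
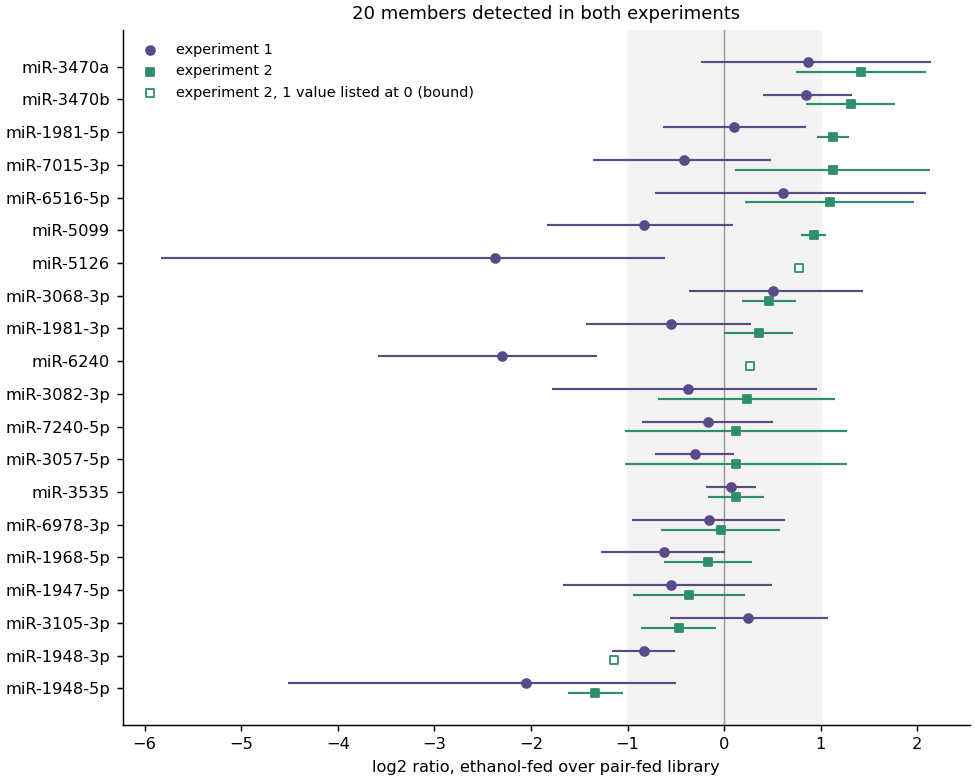
Log2 ratio of the ethanol-fed over the pair-fed library for the 20 members detected in both experiments (violet circles, experiment 1; green squares, experiment 2). Lines are 95% counting intervals of the ratio without added reads, open squares are bounds from a value listed at 0, and the grey band marks changes under 2-fold. miR-3470a and miR-3470b lie to the right in both experiments and both arms of miR-1948 to the left.

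Members that resemble repeats of the genome were mostly higher in the ethanol-fed library of experiment 2. B1 and B2 elements are short interspersed repeats that are present in very many copies in mouse introns and untranslated regions, and the runs in miR-3470b and in miR-3473b are of the kind found in B1 and B2. The whole miR-3470b sequence occurred exactly in annotated transcripts of 546 genes on the same strand and of 497 genes on the opposite strand (GENCODE vM21). miR-3473b occurred in 343 and 390 genes and miR-3473a in 146 and 135 genes, whereas no lower-numbered microRNA reached 10 genes. Reads of these 3 sequences cannot be assigned to 1 locus. For miR-3473e and miR-5128, which share the run of 9 bases, 0 genes held the whole sequence on either strand. By the register, miR-3470b lies at chr16:44013885-44013905 antisense to Gramd1c, miR-3473b at chr10:41670774-41670793 antisense to Ccdc162, and miR-3473e at chr5:31667296-31667316 in an intron of Rbks (GRCm38.p6).

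The values of these members were mostly higher in the ethanol-fed library. miR-3470b had 57 and 107 reads in experiment 1, a log2 ratio of 0.85 (counting interval 1.32 to 2.50 times), and 4.81 and 11.92 RPM in experiment 2, a log2 ratio of 1.31 (1.80 to 3.42 times). miR-3470a, grouped with it by name, had 8 and 16 reads in experiment 1 and 2.22 and 5.91 RPM in experiment 2, with log2 ratios of 0.87 and 1.41. Only the interval of experiment 2 (1.67 to 4.24 times) lay above 1 for miR-3470a. In experiment 2, miR-3473b had 2.50 and 9.06 RPM, a ratio of 3.62 (2.38 to 5.54). miR-3473e had 1.39 and 7.39 RPM, a ratio of 5.32 (3.09 to 9.19), the largest of the 42 members above 0 in both libraries. In experiment 1, miR-3473b had 0 and 6 reads, under the minimum, and miR-3473e had no row. miR-5128 had a listed 0 and then 1.94 RPM in experiment 2, at least 2.11-fold higher. It was detected through the ethanol-fed library alone, so it could not have been lower. miR-3473a went the other way, with 3.05 and 1.85 RPM and a ratio of 0.61 whose interval (0.35 to 1.05) held 1. The 5 members with copies in many genes or with the run GAGAUGGCU, and miR-3470a, summed to 13.97 and 38.07 RPM in experiment 2. miR-3473b and miR-3473e share the seed GGCUGGA, and no other pair among the 57 members with a sequence shared a seed.

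The members with the run AUCCCA were seen in experiment 2 only. Similar letters stand near the 3′ end of many tRNAs, in the arm that carries the T loop, and tRNA sequences were not analysed here. miR-3963, which lies outside annotated genes at chr3:151023839-151023857, had a ratio of 2.60 (2.31 to 2.93). miR-3968, which lies antisense to Trim80 at chr11:115447969-115447989, had a ratio of 1.95 (1.72 to 2.20). miR-5100, in an intron of Mief2, a regulator of mitochondrial fission, had 2.22 and 2.31 RPM, a ratio of 1.04 (0.60 to 1.81). All 3 had no row in experiment 1. The 2 abundant ones were thus higher and the rare one showed no difference beyond counting error. The lower-numbered microRNA with the same run, miR-191-5p, had log2 ratios of −0.49 in experiment 1 and −0.24 in experiment 2. miR-5099, the highest member of experiment 2, had a ratio of 1.90 there (1.73 to 2.08) but 23 and 13 reads in experiment 1, a log2 ratio of −0.83 whose interval held 1 (0.28 to 1.07 times).

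Members kin to let-7 and miR-142a were compared with their relatives. miR-3962 is identical to let-7g-5p over 17 of its 20 bases, from the relative's base 3 on. It had 3.14 and 6.65 RPM in experiment 2, a ratio of 2.12 (1.41 to 3.17), while let-7g-5p had 32886.51 and 36813.31 RPM, a log2 ratio of 0.16. miR-1961, with the let-7 seed GAGGUAG and 13 bases in common with let-7i-5p, had 1.66 and 2.86 RPM, a ratio of 1.72 (0.97 to 3.05), while let-7i-5p had a log2 ratio of −0.21. The ratio of miR-3962 thus exceeded counting error and that of miR-1961 did not, and both lay far below their relatives in level. miR-3964 and miR-3969 share 13 and 11 bases with miR-142a-5p. miR-3964 had 1.39 RPM and miR-3969 had 2.40 RPM in the pair-fed library, and both were listed at 0 in the ethanol-fed library. miR-3969 was at least 2.61-fold lower and miR-3964 at least 1.51-fold lower, beside 583.47 and 309.03 RPM of miR-142a-5p, a log2 ratio of −0.92. Both members thus lay below their pair-fed value, as did their relative. They had no row in experiment 1 and were detected through the pair-fed library alone, so they could not have been higher.

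miR-3074-5p, the complement of miR-24-3p, had 1.10 and 3.52 RPM in experiment 2, a ratio of 3.20 (1.67 to 5.99), and 0 and 1 read in experiment 1. miR-24-3p itself had a log2 ratio of 0.38 in experiment 2 and −0.32 in experiment 1. Seeds were further shared by miR-5129-3p with miR-455-5p and by miR-6240 with miR-330-3p. miR-5129-3p had a listed 0 and 1.48 RPM in experiment 2. miR-6240, with 37 and 7 reads in experiment 1, had a log2 ratio of −2.30 (0.08 to 0.40 times). In experiment 2 it had a listed 0 and 1.11 RPM, a bound of 1.21-fold. It was detected there through the ethanol-fed library alone, so it could not have been lower. The opposite sign therefore does not show that the 2 experiments differed.

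**Figure D4:**
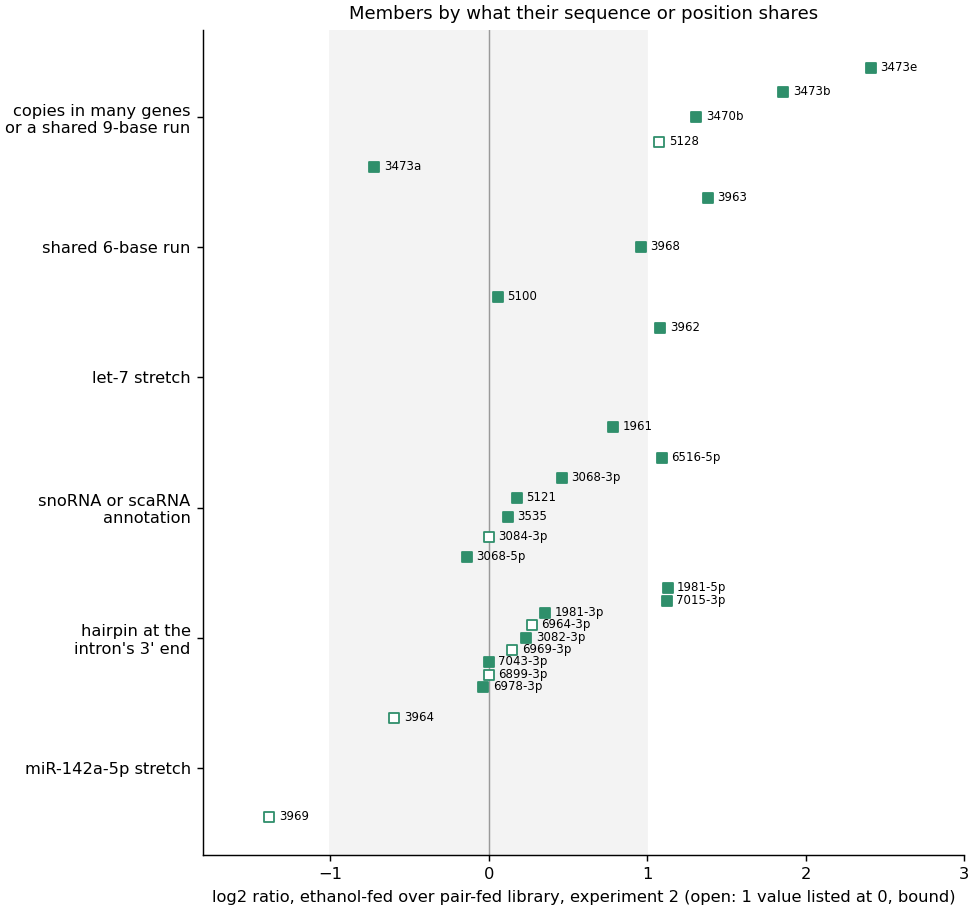
Log2 ratio in experiment 2 of the members grouped by what their sequence or position shares, with 1 square per member and open squares for bounds from a value listed at 0. The grey band marks changes under 2-fold. Of the 5 members of the repeat group 4 lie beyond 2-fold to the right, 1 of them (miR-5128) a bound from a listed 0, beside 5.76% of all microRNAs, and the members at the 3′ end of an intron lie around 0 apart from miR-1981-5p and miR-7015-3p.

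A group of members had their hairpin or mature sequence at the 3′ end of an annotated intron. An intron that is itself the hairpin, or whose 3′ end closes it, can be freed by splicing in place of Drosha. Whether this holds for these members was not tested. For 10 of 57 members (17.5%, from 9 hairpins) the hairpin or the mature sequence ended within 2 bases of the 3′ end of an annotated intron, against 6 of 355 lower-numbered microRNAs (1.69%). Sequences of 4 of them are shown with their last 3 bases in capitals, which in the last 3 are the CAG or UAG that closes an intron:
miR-1981-3p: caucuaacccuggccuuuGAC
miR-6978-3p: acggcuucacucucacccugCAG
miR-7015-3p: ucucacuguccucugcacUAG
miR-3082-3p: cacauggcacucaacucugCAG

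The hairpin of miR-1981 spans the whole of intron 5 of 7 of Marc2, 82 bases long, which encodes a mitochondrial amidoxime-reducing enzyme. miR-1981-5p, at chr1:184822465-184822488 on the minus strand, had 27 and 30 reads in experiment 1, a log2 ratio of 0.10 (0.64 to 1.80 times), and a ratio of 2.19 (1.95 to 2.46) in experiment 2. miR-1981-3p had 26 and 18 reads and then 10.17 and 13.03 RPM, a ratio of 1.28 in experiment 2. The 5p arm therefore differed in experiment 2 and showed no difference beyond counting error in experiment 1. miR-6978-3p lies at the 3′ end of intron 22 of 40 of C3, the central component of complement made by hepatocytes, at chr17:57217172-57217194. It had 26 and 24 reads in experiment 1 and 3.88 and 3.79 RPM in experiment 2, with log2 ratios of −0.16 and −0.03, and its intervals held 1 in both (0.52 to 1.54 and 0.64 to 1.50 times). miR-7015-3p, in Smap2, had 21 and 16 reads and then 1.02 and 2.22 RPM, with log2 ratios of −0.42 and 1.12. miR-3082-3p, in Stub1, a ubiquitin ligase that works with chaperones, had 9 and 7 reads and then 1.57 and 1.85 RPM. In experiment 1, 1 of 6 such members with a ratio was above 0 and 5 were below it, and in experiment 2, 6 of 9 were above 0, 1 below it and 2 equal to it. Of the 6, miR-6964-3p (a listed 0 and 1.11 RPM) and miR-6969-3p (a listed 0 and 1.02 RPM) were bounds. Of the 2 equal to 0, miR-6899-3p (0.92 RPM and a listed 0) was a bound too. It was equal only because its listed 0 was set to 0.92 RPM. Over all microRNAs, 147 of 302 were above 0 in experiment 1 and 233 of 469 in experiment 2. Over all members these were 12 of 27 and 39 of 60. The share of the intron-end members above 0 in experiment 2 was thus near that of all members.

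Members within annotated snoRNAs or the related small Cajal body RNAs (scaRNAs) showed mostly small differences. Such members numbered 6 of 57 (10.5%), against 9 of 355 lower-numbered microRNAs (2.54%). miR-3535, at chr1:86352062-86352087 in a snoRNA of an intron of Ncl, which encodes nucleolin, had log2 ratios of 0.07 (0.88 to 1.26 times) in experiment 1 and 0.12 (0.89 to 1.33 times) in experiment 2. It and miR-3470b were the 2 members that reached 100 reads in both experiments, counted by steps in experiment 2. miR-3068-3p, in an intron of Alkbh1 at chr12:87437685-87437706, had 16 and 24 reads and then 16.09 and 22.18 RPM, with log2 ratios of 0.51 and 0.46, and the interval lay above 1 in experiment 2 only (1.13 to 1.67 times). miR-3068-5p had 39.12 and 35.58 RPM in experiment 2, a log2 ratio of −0.14 whose interval held 1 (0.79 to 1.04 times). For both arms the overlapping annotated genes were Gm29362 and Mir3068, the latter named for the microRNA itself. miR-6516-5p, in a scaRNA, had 6 and 10 reads and then 1.39 and 2.96 RPM, a ratio of 2.13 (1.17 to 3.90) in experiment 2. miR-5121, within Snord33 in Rpl13a, had 1.39 and 1.57 RPM, and miR-3084-3p had 0.92 RPM and a listed 0.

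A pair of members lies at Aspg, which encodes an asparaginase, on opposite strands. miR-3073a-3p at chr12:112109290-112109311 on the plus strand had 3.14 and 3.42 RPM, and miR-3073b-5p at chr12:112109288-112109309 on the minus strand had 3.05 and 4.71 RPM. The interval of the former held 1 (0.69 to 1.73) and that of the latter touched it (1.00 to 2.38).

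The remaining falls were those of miR-1948, miR-1943-5p and a few rare members. miR-1948-5p had 11 and 2 reads in experiment 1, a log2 ratio of −2.05, and 32.83 and 13.03 RPM in experiment 2, a log2 ratio of −1.33. The intervals were 0.04 to 0.71 and 0.33 to 0.48 times. miR-1948-3p was also lower in both, with a log2 ratio of −0.83 (0.45 to 0.70 times) in experiment 1 and with 2.03 RPM and a listed 0 in experiment 2, at least 2.21-fold lower. Both arms of this hairpin were thus lower in the ethanol-fed library of experiment 1, and miR-1948-5p was lower in that of experiment 2. There miR-1948-3p was detected through the pair-fed library alone, so it could not have been higher. miR-1943-5p, in an intron of Tmem184b at chr15:79375271-79375293, had a log2 ratio of −1.21 (0.28 to 0.64 times) in experiment 1. miR-3057-5p, in an exon of Apba3, had 103 and 86 reads with an interval of 0.61 to 1.07 times, and 1.02 and 1.11 RPM in experiment 2. miR-3105-3p, in an intron of Shank2, had 21 and 26 reads and then 11.65 and 8.41 RPM, a ratio of 0.72 (0.55 to 0.94) in experiment 2. miR-7219-3p had 7.58 and 4.16 RPM in experiment 2, a ratio of 0.55 (0.38 to 0.79). miR-5126 had 9 reads and 1 read in experiment 1. In experiment 2 it had a listed 0 and 1.57 RPM and was detected through the ethanol-fed library alone. Some further members were picked with their values in view, among them miR-7219-3p and miR-5126. In experiment 1 the 2 higher members, picked likewise, were miR-8111, with 14 and 33 reads, and miR-7236-3p, with 0 and 10 reads. The latter was at least 3.22-fold higher against a floor of 3 reads in the pair-fed library. It met the minimum through the ethanol-fed library alone, so it could not have been lower. miR-8112, in an exon of Krcc1, completed the 12 higher members of experiment 2, with a listed 0 and 1.85 RPM. Like miR-5128, it was detected there through the ethanol-fed library alone. The 25 members not described singly had log2 ratios between −0.62 and 0.66 in experiment 1 (7 members, 6 to 48 reads) and between −0.36 and 0.70 in experiment 2 (21 members, up to 17.39 RPM, 9 of them bounds), and none of their intervals left out 1.

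The share of the 2 arms of a hairpin can be set side by side between tables because it is taken within a library. Of miR-1948 reads, the 3p arm held 94.8% (95% Wilson interval 90.9% to 97.1%) in the pair-fed and 98.3% (94.0% to 99.5%) in the ethanol-fed library of experiment 1. In experiment 2, counted by steps, it held 5.84% (3.89% to 8.68%) in the pair-fed library and was listed at 0 in the ethanol-fed library. For miR-3068 the 3p share was 80.0% and 100% in experiment 1, of 20 and 24 reads, and 29.1% and 38.4% in experiment 2. These 2 hairpins had another main arm in each table, with all 4 intervals on their side of 50%. Within a table, the pair-fed and the ethanol-fed library had the same main arm. For miR-1981 the 3p share was 49.1% and 37.5% in experiment 1 and 21.0% and 13.4% in experiment 2. miR-3105 kept the 3p arm in all 4 libraries, with 90.1% to 100%, and miR-3073b had too few reads in experiment 1, 8 and 5, to place its share. Among hairpins with both arms named and at least 10 reads in each table, the main arm differed between the tables in 2 of 13 member hairpins (15.4%) and in 18 of 158 lower-numbered ones (11.4%). With all 4 intervals on their side of 50%, these were 2 of 13 (15.4%) and 7 of 158 (4.43%).

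**Figure D5:**
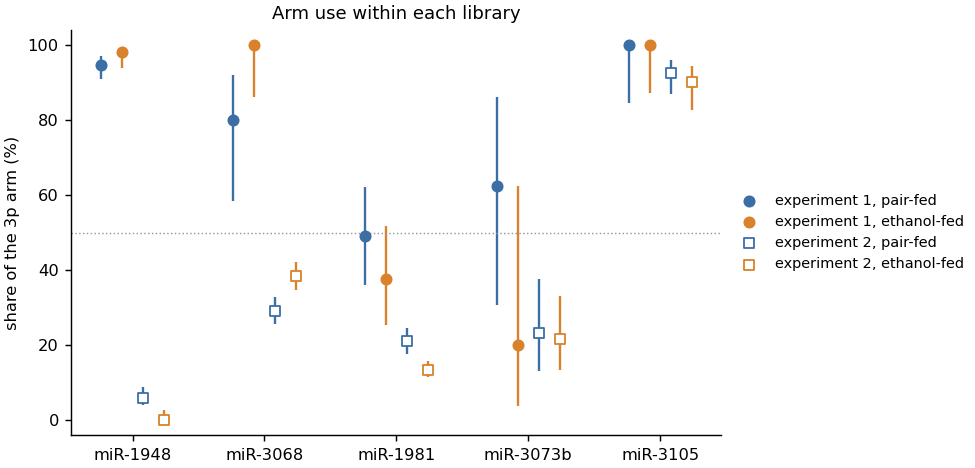
Share of the 3p arm in percent of the reads of 5 member hairpins within each library (blue, pair-fed; orange, ethanol-fed; filled circles, experiment 1; open squares, experiment 2), with 95% Wilson intervals. For miR-1948 the share lies above 90% in both libraries of experiment 1 and below 9% in both of experiment 2.

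MicroRNAs of other cell types differed between the libraries too. Those of hepatocytes, miR-122-5p, miR-192-5p and miR-148a-3p, summed to 461451 and 452012 RPM in experiment 1 and to 485814 and 454283 RPM in experiment 2. In each experiment miR-148a-3p was higher and the other 2 were lower. The parts of the sum differed between the tables. miR-122-5p had 2971 and 2210 RPM in experiment 1 and 182938 and 156660 RPM in experiment 2. The 4 microRNAs of the pancreas list summed to 5.92 and 113.03 RPM in experiment 2, and all 4 were higher, with miR-216a-5p and miR-216b-5p listed at 0 after pair-feeding. In experiment 1 they summed to 85.1 and 48.5 RPM, nearly all miR-375-3p. The 4 red cell microRNAs summed to 11559 and 33915 RPM in experiment 1, where all 4 were higher, and to 1826 and 1152 RPM in experiment 2, where all 4 were lower. The 6 white cell microRNAs summed to 417 and 346 RPM in experiment 1, where 5 of 5 with a ratio were lower, and to 898.29 and 480.64 RPM in experiment 2, where all 6 were lower. In such bulk samples, fewer cells of a type and less RNA per cell cannot be told apart. The part of these cells in the members' differences was not tested.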

How the data were processed

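Small RNAs of mouse liver were collected by gel electrophoresis and sequenced on an Illumina instrument. The table of experiment 1, as the authors deposited it, holds the raw count of reads per microRNA. That of experiment 2, also deposited by the authors, holds RPM per library, with each column given more than once with identical values, and their own log2 fold change and p-value, which were not used. The submitters' processing notes name the build mm8. The aligner, the microRNA annotation, the filters and the number of animals behind a library are not given in the sources used here. The group of each column was read from its name, which left 0 columns unassigned. The label text gives 10 days of ethanol diet in its protocol and 16 days of feeding in its design statement.

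The members, the marker lists and the groups were chosen with earlier results of these data known. Log2 ratios were computed on RPM, with a pseudocount of 1 read and a minimum of 10 reads in both libraries together in experiment 1, and with a listed 0 set to the lowest listed value in experiment 2. Steps of RPM were read as whole within 0.15 step for 295 of 296 values under 60 RPM in the pair-fed and 286 of 291 in the ethanol-fed library. Intervals are 95% Wilson intervals of the share of the ethanol-fed library, without the pseudocount. With 1 library per group in each table, no test and no p-value were computed. Members were named if they were among the 5 highest of a pair-fed library, had 100 reads in a library of both tables, were among the 3 largest rises or falls with 100 reads, passed 2-fold in both tables, had both arms, or shared a seed or sequence, and others were picked with their values in view. Sequences and positions came from RefSeq (GRCm38.p6) and genes from GENCODE vM21 (GRCm38), joined by name, since the deposited tables hold no coordinates. The ratios, steps and intervals were tested on simulated data. Alternatives were unscaled reads, scaling without the most abundant microRNA, size factors from the median of ratios, other minimums, a pseudocount of 0.1 read and a listed 0 taken as 0 reads. Python 3.11.15 was used with scipy 1.17.1, pandas 2.3.3, numpy 2.4.6 and matplotlib 3.10.9.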

Additional observations from a re-analysis of the deposited data

How the results depend on the processing

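The number of members at least 2-fold higher or lower depended on how rare microRNAs were treated. In experiment 1 it was 6 of 27, and it became 1 of 5 with a minimum of 100 reads and 14 of 40 with no minimum. Over all microRNAs the same settings gave 19 of 158 and 201 of 484 in place of 77 of 302. In experiment 2 it was 15 of 60, and it became 29 with a listed 0 taken as 0 reads and 6 of 17 with a minimum of 100 reads, 5 of them higher. Over all microRNAs these settings gave 121 of 469 and 37 of 298 in place of 76 of 469. Of the 37, 13 were higher and 24 lower. Fewer or more microRNAs tested, and larger ratios against 0, are part of these settings by construction. Other scalings and a pseudocount of 0.1 read left 6 members called in experiment 1 and 14 or 15 in experiment 2. The log2 ratio of the members' sum in experiment 2 was 0.61, and 0.55 without miR-5099, the most abundant member. Of 288 values of single members under the alternatives, 1 changed sign (miR-3970, near 0). Depth limits the rare members, since only 4 of the 67 reached 100 reads in a library of experiment 1 and 12 the same by steps in experiment 2. Each table holds 1 library per group, and no fit across both tables was run, since one holds reads and the other RPM.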
